A study of Rattus norvegicus with 38 samples.

Results

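Rejecting heart allografts were compared with accepted heart isografts in a rat model, 5 hearts against 4. Every graft was a heart of a Dark Agouti (DA) donor placed in the abdomen of a recipient, with the donor aorta joined to the abdominal aorta and the right atrium joined to the inferior vena cava. The 5 allografts (A3, A4, A5, A6 and A7) had Brown Norway (BN) recipients and the 4 isografts (I9, I11, I12 and I13) had DA recipients, and every graft was taken on day 6 after transplantation. Before grafting, the pulmonary vessels of the donor heart were tied off, an opening was made between the atria and the tricuspid leaflets were disrupted. This was done in both groups, and the filling of the graft ventricles is not reported. By the study's own account, allografts of this age had stopped beating strongly and showed severe rejection on histology, whereas isografts had not. Donor tissue was therefore DA in both groups, but cells that entered from the blood were BN in the allografts and DA in the isografts. RNA came from cross-sections of both ventricles and the septum, 1 Affymetrix RAE230A array per heart. These 9 hearts are a subset of 38 samples, and they were chosen by the tissue, group and titles in the sample labels and by no measured value. The native hearts of the same recipients, 5 BN and 4 DA, entered the model for the spread and serve as background, and no blood sample was used.

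During acute rejection, recipient leukocytes enter the graft and injure its muscle. Cells that divide, secrete or fight infection need more protein folding in the endoplasmic reticulum (ER), more ribosomes and amino acids, more actin turnover and more nucleotides than resting muscle does, while working heart muscle depends on its dystrophin complex, its intercalated discs and the oxidation of fat, ketones and branched-chain amino acids. The description below takes up such processes and leaves out lists of leukocyte, sarcomere and energy genes. Some of the genes named are nevertheless abundant in leukocytes.

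Levels are given as the signal over the median signal of that array, called array medians, with hearts always in the order A3, A4, A5, A6, A7 and I9, I11, I12, I13. A level compares hearts for 1 probeset and is not compared between genes, since probesets differ in brightness. Fold changes are on the log2 scale, allograft minus isograft, ± the standard error (SE) of the limma model, and are relative to a median over all genes of 0.02. A gene passed the test at a limma adjusted p of at most 0.10 over all 15866 probesets, and was called when it also changed at least 3-fold and reached the array median in at least 50% of either group. Each gene with 1 symbol was represented by its brightest probeset. Of 10411 such genes, 22.5% were higher and 23.2% lower in allografts at that p, 4.37% were called higher and 5.68% called lower, and in 35.2% no allograft lay within the range of the isografts. Over all probesets, 20.3% were higher and 21.2% lower at that p, and 8.86% were called, 3.81% higher and 5.05% lower. These shares are the background for the counts below.

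Markers of several cell types differed between the groups. The summed level of 14 leukocyte markers was 182 to 288 array medians in allografts and 31.2 to 44.0 in isografts. That of 13 cardiomyocyte markers was 193 to 510 against 797 to 1336. Neither sum overlapped between the groups. All 14 leukocyte markers were higher, and 11 of the 13 cardiomyocyte markers were lower, with the natriuretic peptides Nppa and Nppb not passing. Fibroblast markers summed to 31.5 to 259 in allografts and 248 to 310 in isografts. Of 12 fibroblast markers, 9 were lower, 1 (Pdpn, 2.52-fold) was higher and 2 (Col1a1 and Col1a2) did not pass. Smooth muscle and pericyte markers summed to 34.2 to 50.1 and 49.9 to 60.4, with 8 of 18 lower, 2 higher and 8 not passing. Endothelial markers summed to 36.1 to 40.4 and 31.3 to 36.0. Of the 9 endothelial markers, however, 3 were higher, 1 was lower and 5 did not pass, with a median change of -0.09. Adipocyte markers summed to 17.4 to 26.1 and 31.2 to 48.5, with 2 of 10 lower and 8 not passing. The sums of nerve and Schwann cell markers and of red cell markers overlapped between the groups. In whole tissue, fewer cells of a type and less RNA per cell cannot be told apart, and the part of these shifts in any result below was not tested. Where a named gene also differed between native BN and DA hearts at an adjusted p of at most 0.10, that difference (BN minus DA) is given beside it, and its part in the result was not tested.

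In all, 23 lists with 781 distinct genes were measured, and 471 of these genes passed the test. Lists of the non-muscle cytoskeleton, ER chaperones, ribosome biogenesis and translation, amino acid supply, and pentose phosphate and nucleotide metabolism had most of their members higher in allografts. Lists of amino acid and ketone breakdown, the dystrophin complex and intercalated disc, and mitochondrial import and ribosomes had most of their members lower. Between these ends lay lists with members moving both ways and a median near that of all genes, namely cytosolic chaperones, caveolae, adrenergic and related signaling, and transforming growth factor-beta (TGF-beta) and bone morphogenetic protein (BMP) signaling.

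**Figure D1:**
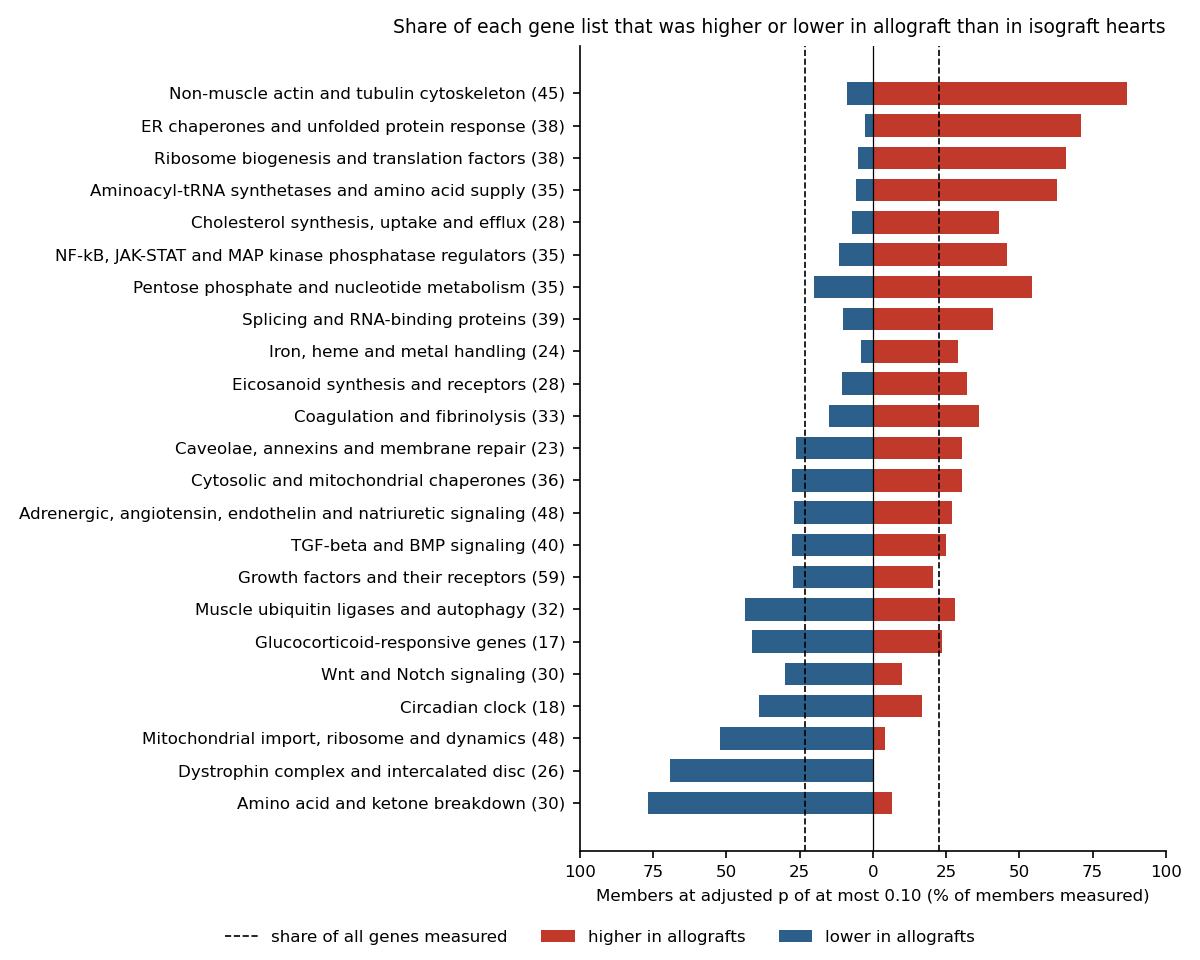
Share of the measured members of each gene list (number in parentheses) that were higher (red, to the right) or lower (blue, to the left) in allografts at a limma adjusted p of at most 0.10, in percent of members. The dashed lines mark the shares over all 10411 genes, 22.5% higher and 23.2% lower, and the bars run from 39 of 45 cytoskeleton members higher to 23 of 30 amino acid breakdown members lower.

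The shift of a list was also read in each heart. The median ER chaperone gene lay 0.81 to 1.01 above the isograft mean on the log2 scale in the 5 allografts, and the median cytoskeleton gene 0.71 to 1.15. The median gene of amino acid and ketone breakdown lay -1.77 to -1.40 relative to the isograft mean, and that of the dystrophin complex and intercalated disc -1.37 to -0.68. For these lists no allograft lay within the range of the isografts, while for the lists of TGF-beta, chaperones, caveolae, and growth factors the hearts of both groups intermingled. The isografts themselves were not uniform: I9 and I13 lay above I11 and I12 for the lists of amino acid breakdown and mitochondrial import, and the cardiomyocyte marker sum was 1336 and 1231 in I9 and I13 against 797 and 842 in I11 and I12.

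**Figure D2:**
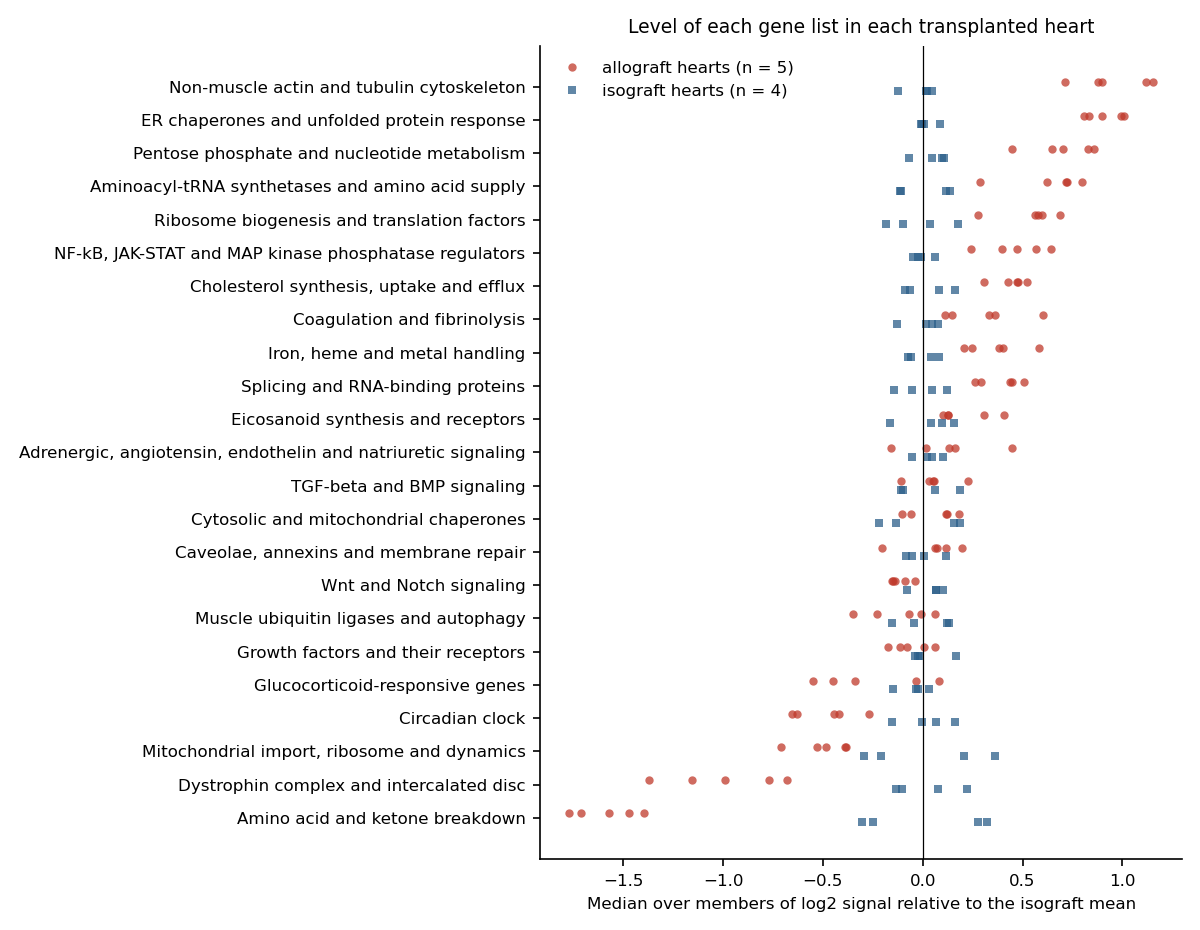
Median over the members of each gene list of the log2 signal relative to the isograft mean of each gene, per heart, for 5 allografts (red circles) and 4 isografts (blue squares). Allografts lie right of all isografts for the upper lists, from 0.71 to 1.15 for the non-muscle cytoskeleton, and left of them for the lowest, from -1.77 to -1.40 for amino acid and ketone breakdown.

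The ER list held the chaperones, disulfide isomerases, translocon subunits and stress regulators of the unfolded protein response, the program by which cells expand folding capacity when unfolded protein accumulates. Of 38 members measured, 27 were higher, 1 was lower and 10 did not pass, and the median change was 0.94. In 27 members the groups did not overlap, and 4 were called, all higher. A short promoter sequence, the ER stress element (CCAAT, 9 bases of any kind, then CCACG), is bound by the stress regulators ATF6 and XBP1 together with NF-Y. In promoter windows of 250 bases before to 50 after the start site (RefSeq, assembly GRCr8, either strand), the motif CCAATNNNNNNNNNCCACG was found in 7 of the 32 listed genes with an entry (21.9%) and in 21 of 27457 genes with an entry (0.0765%). The windows around these matches are shown because the holders include the main ER chaperones, with the motif in capitals, 20 bases on either side where the window allows, written in the direction of the gene. In Calr, Creld2 and the second match of Hsp90b1 the motif lies on the opposite strand and its reverse complement is in capitals. The window of Hspa5 lies at chr3:38452953-38453011 (+ strand). Those of Hsp90b1 lie at chr7:23012431-23012489 and chr7:23012327-23012385 (- strand). The others lie at chr19:40213117-40213173 (Calr, + strand), chr15:102432514-102432572 (Dnajc3, + strand), chr7:121789219-121789277 (Creld2, + strand), chr14:84604538-84604596 (Xbp1, + strand) and chr10:35158049-35158107 (Canx, - strand).
Hspa5: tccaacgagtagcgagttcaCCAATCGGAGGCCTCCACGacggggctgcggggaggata
Hsp90b1, first match: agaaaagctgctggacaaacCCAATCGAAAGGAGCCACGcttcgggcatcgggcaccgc
Hsp90b1, second match: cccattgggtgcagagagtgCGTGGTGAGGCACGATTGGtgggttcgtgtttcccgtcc
Calr: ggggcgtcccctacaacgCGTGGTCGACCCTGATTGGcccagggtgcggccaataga
Dnajc3: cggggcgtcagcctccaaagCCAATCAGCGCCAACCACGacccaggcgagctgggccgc
Creld2: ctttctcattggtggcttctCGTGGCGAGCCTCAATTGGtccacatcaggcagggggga
Xbp1: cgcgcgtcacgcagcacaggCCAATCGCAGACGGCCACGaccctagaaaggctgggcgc
Canx: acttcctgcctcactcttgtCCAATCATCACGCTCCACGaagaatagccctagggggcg

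Of these 7 genes, 6 were higher in allografts and Canx did not pass. Hspa5 encodes BiP, the central chaperone and stress sensor of the ER, and carries its match 43 to 25 bases before the start site. Its level was 35.6, 32.5, 27.5, 25.8 and 39 array medians in the allografts and 10.5, 13.4, 17.7 and 15.1 in the isografts (log2 fold change 1.19 ± 0.19, limma adjusted p = 0.00011), so that the lowest allograft stood above the highest isograft. Hsp90b1, the ER member of the HSP90 family, carries 2 matches and measured 29.8, 27.8, 24.4, 23.6 and 28.2 array medians in the allografts and 9.78, 10.8, 12 and 10.9 in the isografts (1.30 ± 0.14, adjusted p = 1.3e-06). Calreticulin (Calr), which folds glycoproteins and binds calcium, measured 28.9, 29.6, 22.4, 27.6 and 21 array medians in the allografts and 11.8, 12.1, 11.7 and 10.1 in the isografts (1.17 ± 0.16). All of these 3 probesets kept the groups apart by a wide margin. Dnajc3, a cochaperone of BiP that also restrains the translation kinase PERK, was 3.62-fold higher at 5.38, 6.45, 3.44, 4.3 and 4.7 array medians in the allografts and 1.54, 1.56, 1.41 and 0.876 in the isografts (adjusted p = 1e-05). Creld2, a disulfide isomerase released under ER stress, was 2.51-fold higher (1.32 ± 0.27). Xbp1, the transcription factor itself, changed least among the holders that passed, with 9.1, 14.1, 10.3, 12.2 and 13.3 array medians in the allografts and 8.4, 8.18, 8.17 and 8.47 in the isografts (0.49 ± 0.16, adjusted p = 0.022). Calnexin (Canx), the membrane-bound homolog of calreticulin, measured 11, 9.22, 6.46, 7.25 and 11.9 array medians in the allografts and 9.73, 7.45, 8.28 and 10.5 in the isografts by its brightest probeset, with overlapping groups, while its 2 other probesets gave 0.51 to 1.36.

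Among members with no match in this window, the largest change was that of Sel1l, the scaffold of the ligase that removes misfolded ER proteins. It measured 1.43, 1.81, 1.78, 1.81 and 1.86 array medians in the allografts and 0.819, 0.268, 0.254 and 0.137 in the isografts (2.55 ± 0.50, adjusted p = 0.00062). Fold changes of low signals depend on any offset, and after 0.25 array medians were added to every signal that of Sel1l was 1.79. Subunits of the translocon rose, with Sec61a1 3.13-fold and Sdf2l1, a BiP cofactor, 3.08-fold higher, and so did the disulfide isomerases Pdia4 (2.73-fold), Pdia6 (2.5-fold), Pdia3 (1.91-fold) and P4hb (1.78-fold). Sec61b was 2.57-fold higher and also differed between native BN and DA hearts (log2 difference 0.66, adjusted p = 0.085). The stress regulators moved less. Atf4, the transcription factor of the amino acid and ER stress response, was 1.53-fold higher (adjusted p = 0.033) but did not pass when isograft I12 was left out, and its proapoptotic target Ddit3 (CHOP) measured 2.66, 3.36, 1.92, 2.43 and 3.31 array medians in the allografts and 4.88, 2.42, 2.01 and 3.95 in the isografts, with overlapping groups. Herpud1, which brings ubiquilins to the same ligase, was the exception and was lower, at 4.27, 5.14, 3.48, 4.27 and 3.92 array medians in the allografts and 7.19, 5.25, 5.61 and 8.21 in the isografts (-0.63 ± 0.20, adjusted p = 0.024).

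**Figure D3:**
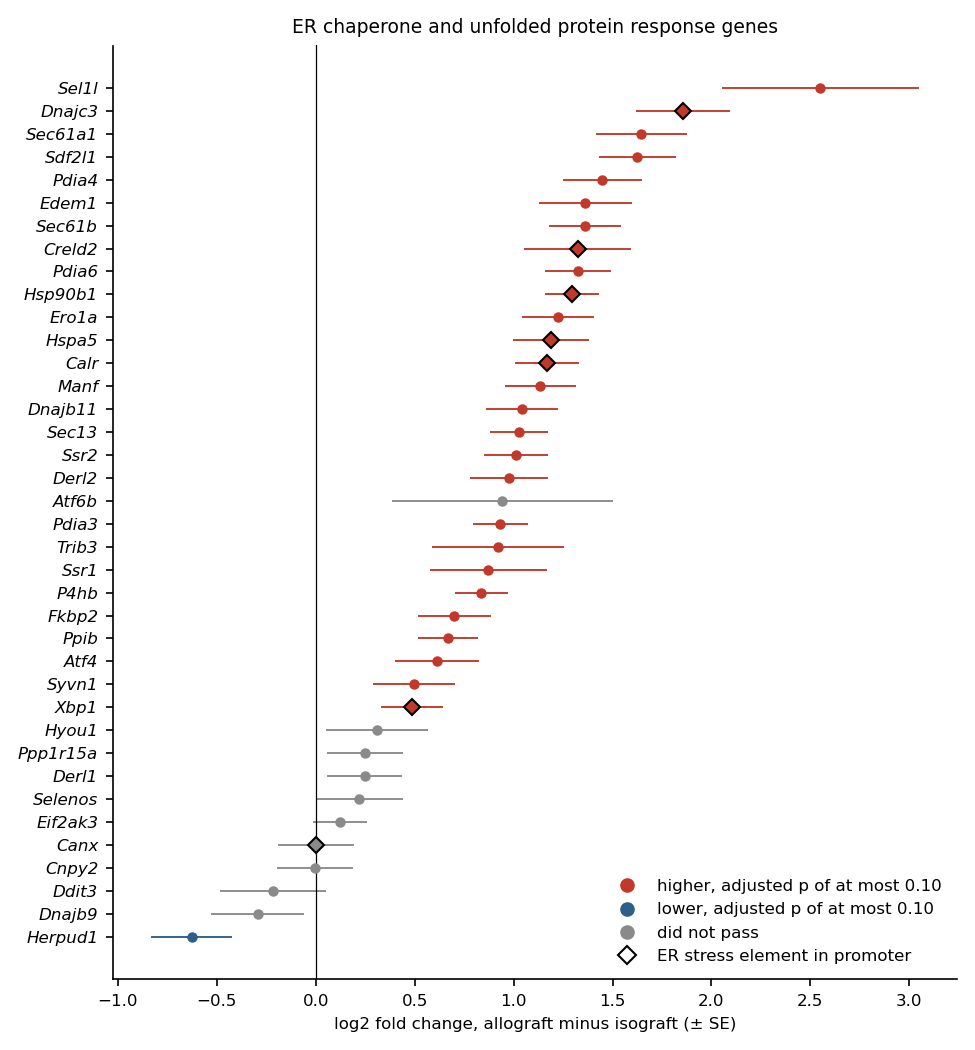
Log2 fold change, allograft minus isograft, of the 38 measured ER chaperone and unfolded protein response genes, with bars of ± SE from the limma model. Members that passed at an adjusted p of at most 0.10 are red (27 higher) or blue (1 lower), and diamonds mark the 7 genes with an ER stress element in the promoter window.

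Amino acids for this synthesis are loaded onto tRNA by aminoacyl-tRNA synthetases and are imported by membrane carriers or made from glycolytic intermediates. Of 35 such genes measured, 22 were higher, 2 were lower and 11 did not pass, with a median of 0.64 and 5 called higher. The change was largest in serine synthesis and in carriers rather than in the synthetases. Psat1, a transaminase of serine synthesis, measured 1.8, 1.29, 1.46, 1.8 and 1.06 array medians in the allografts and 0.246, 0.395, 0.265 and 0.0287 in the isografts (3.14 ± 0.83, adjusted p = 0.0065). This value leaned on isograft I13, without which it was 2.30, and it was 1.88 with 0.25 array medians added. Mthfd2, the mitochondrial folate enzyme that takes up the carbon unit of serine, measured 1.996, 1.5, 1.97, 2.24 and 1.99 array medians in the allografts and 0.106, 0.847, 0.753 and 0.512 in the isografts (2.15 ± 0.47, or 1.56 with the offset and 1.48 without isograft I9). The carriers Slc7a7 and Slc7a8, which pair with the heavy chain Slc3a2, were 4.76-fold and 4.18-fold higher, and the glutamine carrier Slc1a5 was 4.03-fold higher at 3.52, 4.07, 3.81, 3.47 and 3.96 array medians in the allografts and 1.27, 1.13, 0.769 and 0.68 in the isografts. Another glutamine carrier, Slc38a1, was lower, at 1.8, 1.85, 1.58, 1.49 and 2.17 array medians in the allografts and 3.64, 3.4, 4.18 and 4.77 in the isografts (-1.17 ± 0.16), although its 2 other probesets gave 0.35 to 0.58. Its relative Slc38a2 was also lower (-0.51) but did not pass without isograft I13 (-0.44). Slc3a2 rose 1.56-fold, and in native hearts it was lower in BN than in DA (log2 difference -0.56, adjusted p = 0.056). Among synthetases the largest change was that of Wars1, an interferon-induced tryptophanyl-tRNA synthetase, at 12.3, 7.39, 5.26, 5.57 and 7.86 array medians in the allografts and 3.34, 2.99, 3.45 and 3.95 in the isografts (1.10 ± 0.23), while Aars1, Iars1, Lars1 and 7 others did not pass. The amino acid response element TGATGCAAT, bound by ATF4, was found in the promoter windows of Aars1 and Iars1, 2 of 33 listed genes with an entry (6.06%) against 0.211% of all genes, and in none of the 32 ER genes.

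Genes that build ribosomes and start translation rose as well. Of 38 measured, 25 were higher, 2 were lower and 11 did not pass, with a median of 0.58, 2 called higher and 1 called lower. Nhp2 and Gar1, proteins of the small nucleolar particles that modify ribosomal RNA, were 3.45-fold and 2.93-fold higher, and fibrillarin (Fbl), the methyltransferase of the other such particle, 2.65-fold. The initiation helicase Eif4a1 measured 36, 37.3, 26.2, 33.1 and 33.9 array medians in the allografts and 12.7, 10.3, 10.5 and 10.7 in the isografts (1.59 ± 0.16, adjusted p = 1.1e-06). Myc, the transcription factor that drives ribosome biogenesis, was 2.78-fold higher (adjusted p = 0.0074), with isograft I11 within the allograft range at 2.65, 2.44, 2.12, 1.61 and 2.66 array medians in the allografts and 0.832, 1.67, 0.511 and 0.617 in the isografts. Elongation factor Eef2 and the ribosomal protein Rack1, 2 of the brightest members, did not pass (-0.19 and 0.29). The E-box CACGTG, which MYC binds, was found in 11 of 38 listed genes with an entry (28.9%) against 7.08% of 27457 genes. Of these holders, Fbl, Dkc1, Pes1, Eif3b and Eif5a were higher. Eif3a, Eif4e, Eif4g1, Eef2 and Eef2k did not pass, and Nop2 was not measured. A part of MYC in these changes was not tested. The E-box was also found in 2 of 36 pentose and nucleotide genes (5.56%).

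RNA-binding proteins moved in both directions. Of 39 splicing and RNA-binding genes, 16 were higher, 4 were lower and 19 did not pass, with a median of 0.27. Among those that rose were the splicing regulators Ptbp1, at 8.65, 7.2, 7.75, 9.6 and 7.75 array medians in the allografts and 2.69, 3.35, 3.1 and 2.81 in the isografts (1.45 ± 0.16), and Hnrnpa3 (2.86-fold). Hnrnpa3 also differed between native hearts (0.61, adjusted p = 0.089), and 1 of its 3 other probesets passed in the opposite direction at -0.83. The 4 that fell, Rbm24, Rbfox2, Rbm38 and Mbnl2, include regulators of muscle-specific splicing. Rbm24 measured 2.57, 2.98, 1.29, 1.46 and 4.003 array medians in the allografts and 18.2, 14.4, 14.4 and 21.7 in the isografts (-2.91 ± 0.29, adjusted p = 6.1e-07). Rbfox2 measured 0.763, 0.605, 0.815, 0.83 and 0.617 array medians in the allografts and 2.29, 2.46, 2.53 and 2.36 in the isografts (-1.74 ± 0.17), and neither gene had an allograft within the range of the isografts. The 3 other probesets of Rbm24 gave -1.57 to 0.39.

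The list that fell most evenly was that of amino acid and ketone breakdown, mitochondrial enzymes by which heart muscle burns valine, leucine, isoleucine and ketone bodies. Of 30 measured, 23 were lower, 2 were higher and 5 did not pass. The median was -1.50, with 13 called lower, 1 called higher and 23 without overlap. Both subunits of the branched-chain ketoacid dehydrogenase fell. Bckdha measured 0.52, 0.895, 0.439, 0.46 and 0.357 array medians in the allografts and 5.23, 3.25, 3.35 and 4.35 in the isografts (-2.97 ± 0.24, adjusted p = 9.7e-08). Bckdhb measured 0.909, 2.22, 1.05, 1.1 and 1.81 array medians in the allografts and 11.7, 6.92, 8.004 and 11.2 in the isografts (-2.79 ± 0.27). Downstream, Ivd of the leucine path was 5.99-fold lower, Aldh6a1 of the valine path 7.32-fold and Pcca, the propionyl-CoA carboxylase, 5.09-fold. For ketone bodies, the activating enzyme Oxct1 measured 7.52, 11.2, 5.6, 4.23 and 10.8 array medians in the allografts and 53.7, 30.1, 28.9 and 54.3 in the isografts (-2.44 ± 0.28) and the thiolase Acat1 was 5.21-fold lower. The aspartate transaminases Got1 and Got2, which carry reducing equivalents between cytosol and mitochondria, were 5.16-fold and 2.9-fold lower, the latter with another probeset at 0.67 that did not pass. The exceptions were Glul and Bcat1. Glutamine synthetase (Glul), which makes rather than burns glutamine, measured 42.3, 40.7, 29.4, 38.7 and 37.2 array medians in the allografts and 9.84, 8.68, 11.5 and 11.1 in the isografts (1.87 ± 0.17, adjusted p = 2.1e-07), with its 2 other probesets at 2.10 to 2.13. The site AAGGTCA of estrogen-related receptors was found in 1 of 27 promoters of this list (3.70%), against 4.83% of all genes.

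Mitochondrial import, ribosome and dynamics genes fell less. Of 48, 25 were lower, 2 were higher (Tomm40 and Polg, 1.46-fold and 1.23-fold, neither of which passed with the 9 transplanted hearts alone) and 21 did not pass, with a median of -0.47 and 1 called. Mitofusin Mfn2, which fuses outer membranes, measured 2.57, 3.22, 2.56, 2.67 and 4.41 array medians in the allografts and 11.7, 7.78, 8.22 and 11.8 in the isografts (-1.69 ± 0.19), and Mrpl16 of the mitochondrial ribosome was 2.82-fold lower. Neither gene had overlapping groups. The coactivator Ppargc1a was lower (-2.36 ± 0.67, adjusted p = 0.011), but its signals of 0.0374, 0.0169, 0.0277, 0.0378 and 0.036 array medians in the allografts and 0.228, 0.176, 0.0498 and 0.278 in the isografts were far under the array median and the change shrank to -0.59 with the offset.

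The pentose phosphate path supplies ribose and reducing power, and nucleotide enzymes make, salvage and degrade purines and pyrimidines. Of 35 measured, 19 were higher, 7 were lower and 9 did not pass, with a median of 0.67, 6 called higher and 1 called lower. In the pentose path, Tkt, the transketolase, measured 12.8, 16.7, 16.9, 18.3 and 15.6 array medians in the allografts and 3.05, 2.28, 3.06 and 2.11 in the isografts (2.62 ± 0.22, adjusted p = 1.2e-07), Pgd was 4.59-fold higher and Taldo1 3.38-fold. The other probeset of Tkt gave 0.32 and did not pass. In purine handling, Pnp, which splits nucleosides into base and sugar, measured 50.5, 42.4, 24.4, 31.8 and 33.7 array medians in the allografts and 6.86, 6.09, 7.33 and 4.15 in the isografts (2.57 ± 0.21), and Ada and Xdh, which act before and after it in purine breakdown, were 2.91-fold and 2.58-fold higher. Entpd1 (CD39), the ectoenzyme that removes phosphate from extracellular ATP and is abundant on leukocytes and endothelium, was 12.1-fold higher, but at low signals of 0.593, 0.593, 0.121, 0.515 and 0.111 array medians in the allografts and 0.0234, 0.0246, 0.0264 and 0.0245 in the isografts, and 1.11 on the log2 scale with the offset against 3.60 without. Its relative Entpd2 fell (-1.45 ± 0.31), as did adenosine kinase Adk (-1.28 ± 0.16), which returns adenosine to AMP.

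In several places, 2 genes for the same reaction moved in opposite directions, and in each the member known from striated muscle or from mitochondria fell. These pairs were put together after their values were seen. The elongation factor Eef1a2, the form of muscle and neurons, measured 6.75, 7.04, 5.71, 4.72 and 6.53 array medians in the allografts and 37.6, 30.4, 30.1 and 41.5 in the isografts (-2.50 ± 0.17, adjusted p = 2e-08). The ubiquitous Eef1a1 measured 125, 114, 56.5, 80.6 and 90 array medians in the allografts and 57.3, 54.5, 52.3 and 52.6 in the isografts (0.73 ± 0.21, adjusted p = 0.011), with A5 within the isograft range. The ribosomal protein Rpl3l, which takes the place of Rpl3 in striated muscle, measured 0.559, 1.36, 0.787, 0.495 and 1.67 array medians in the allografts and 25.9, 12.7, 14.9 and 24.3 in the isografts (-4.42 ± 0.32). Rpl3 itself measured 87.8, 92.6, 62, 81.8 and 80.6 array medians in the allografts and 42.9, 41, 44 and 37.7 in the isografts (0.96 ± 0.14). Neither of the ribosomal proteins was on a list. The adenylosuccinate synthetase of muscle, Adss1, was 14.2-fold lower at 0.757, 1.02, 0.911, 0.86 and 1.49 array medians in the allografts and 16.8, 10, 11.2 and 19.9 in the isografts. The widely expressed Adss2 was 3.51-fold higher at 9.53, 11.5, 7.96, 10.3 and 10.9 array medians in the allografts and 3.2, 2.68, 3.02 and 2.5 in the isografts, although the other probeset of Adss2 gave -0.77 and did not pass. The mitochondrial branched-chain transaminase Bcat2 was 2.37-fold lower and the cytosolic Bcat1 2.64-fold higher, with its other probeset at 3.39. In 3 of the 4 pairs both genes separated the groups fully. Related genes share sequence, and cross-hybridization between their probes was not analysed here.

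**Figure D4:**
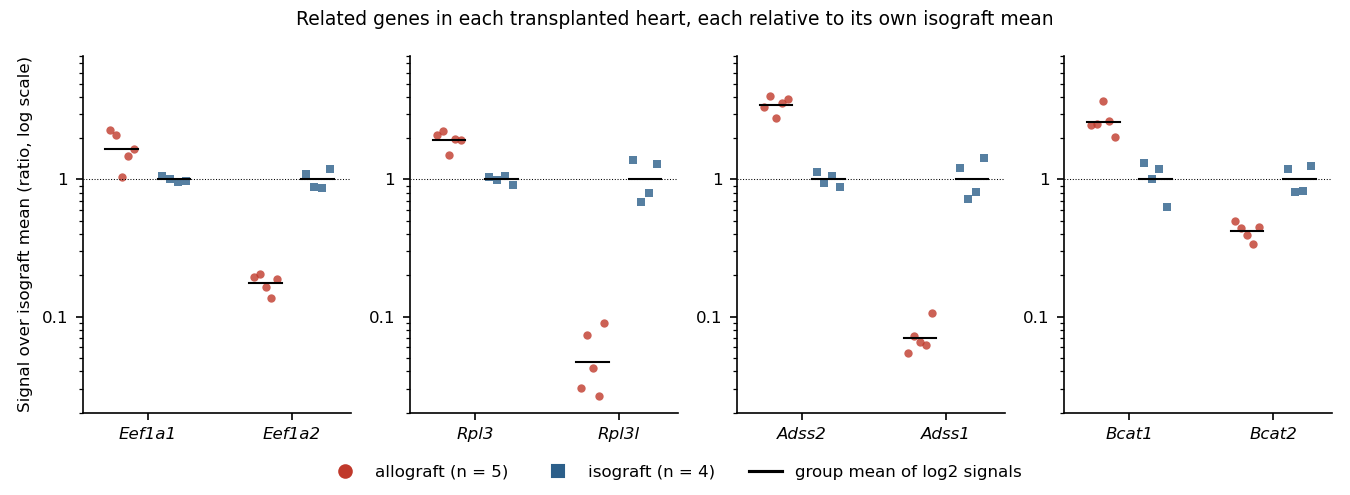
Signal of 4 pairs of related genes in each heart, relative to the isograft mean of the same gene on a log axis, for 5 allografts (red circles) and 4 isografts (blue squares), with bars at the mean of the log2 signals. In each pair the first gene is higher and the second lower in allografts, from 0.73 for Eef1a1 to -4.42 for Rpl3l on the log2 scale, and A5 lies among the isografts for Eef1a1 alone.

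The non-muscle actin and tubulin list moved most uniformly upward. Of 45 measured, 39 were higher, 4 were lower and 2 did not pass. The median was 0.95, with 10 called higher, 2 called lower and 36 without overlap. The largest change was in Tubb6, a beta-tubulin, at 18.8, 21.9, 11.2, 11.5 and 16.9 array medians in the allografts and 1.34, 1.64, 1.44 and 1.14 in the isografts (3.49 ± 0.28, adjusted p = 9.5e-08), with native DA hearts at 0.51 to 0.837. Of the actin-branching ARP2/3 complex, Arpc1b, the form common in leukocytes, was 4.45-fold higher, and Arpc5, Arpc3 and Arpc2 were 3.67-fold, 3.37-fold and 2.1-fold higher, whereas Arpc1a did not pass. Arpc1b also differed between native hearts (0.52, adjusted p = 0.076). The actin-capping protein Capg measured 24.9, 23.1, 14.5, 19.3 and 16.4 array medians in the allografts and 3.97, 4.21, 4.49 and 3.65 in the isografts (2.24 ± 0.17). The tropomyosin Tpm3 measured 35, 35.4, 21.6, 28.5 and 28.4 array medians in the allografts and 6.17, 7.08, 5.79 and 5.7 in the isografts (2.25 ± 0.15). Both kept the groups apart. Cytoplasmic actin Actg1 was 2.01-fold higher, and vimentin (Vim) 1.81-fold, the latter with a native strain difference of 0.68 (adjusted p = 0.092). The 4 members that fell were Gsn, Tuba4a, Myl9 and Rdx. Gelsolin (Gsn), which severs actin filaments and is abundant in heart muscle, measured 9.77, 9.9, 10.2, 9.9 and 12.9 array medians in the allografts and 54.6, 32.1, 41.2 and 52.4 in the isografts (-2.07 ± 0.19, adjusted p = 3.8e-07), and the tubulin Tuba4a was 3.18-fold lower. A CArG box, the site of serum response factor, was in none of the 47 promoters of this list and in 0.0401% of all.

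Of 26 genes of the dystrophin complex and intercalated disc, which anchor heart muscle to matrix and to its neighbors, 18 were lower, none was higher and 8 did not pass. The median change was -0.94, with 7 called lower and 16 without overlap. Within the dystrophin complex, sarcospan (Sspn) measured 2.14, 1.96, 1.43, 1.15 and 1.87 array medians in the allografts and 15.9, 10.8, 12 and 18.1 in the isografts (-3.06 ± 0.21, adjusted p = 1.7e-08), alpha-sarcoglycan (Sgca) was 5.36-fold lower and Sgcb 5.84-fold. Its ligand in the basement membrane, Lama2, measured 0.983, 0.81, 1.86, 1.32 and 1.37 array medians in the allografts and 9.51, 9.6, 8.94 and 10.7 in the isografts (-2.99 ± 0.21). Dystrophin itself (Dmd) had very low signals of 0.0718, 0.0338, 0.0551, 0.0746 and 0.0479 array medians in the allografts and 0.0275, 0.0917, 0.0974 and 0.0603 in the isografts and did not pass. In the disc, desmoplakin (Dsp) measured 5.89, 4.49, 3.52, 2.5 and 5.83 array medians in the allografts and 29.7, 25.9, 27.4 and 33.3 in the isografts (-2.78 ± 0.22). The gap junction protein Gja1 was 1.82-fold lower at 33.3, 37.4, 35.4, 28.8 and 36.8 array medians in the allografts and 72.9, 52.4, 59.4 and 65.7 in the isografts, and plakoglobin (Jup) 2.7-fold lower. Desmin (Des), which links discs to the sarcomere, measured 47.5, 72.9, 24.9, 37.8 and 57.3 array medians in the allografts and 67.2, 48.9, 47.3 and 62.3 in the isografts and did not pass, although most cardiomyocyte markers fell. A MEF2 site was in 1 of 27 promoters of this list (3.70%) against 0.142% of all. The holder, Xirp2, was not measured, so that no measured member with an entry held this sequence. Other forms of the MEF2 site were not searched.

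Membrane repair genes moved both ways, in shares near those of all genes. Of 23 caveola, annexin and repair genes, 7 were higher, 6 were lower and 10 did not pass, with a median of 0.03. Trim72 (MG53), which seals membrane tears in muscle, measured 3.51, 4.51, 2.15, 2.51 and 4.05 array medians in the allografts and 22.7, 16.1, 13.3 and 19.6 in the isografts (-2.45 ± 0.22, adjusted p = 2.2e-07). The muscle caveolin Cav3 was 4.62-fold lower, and so was Cav1, the caveolin of endothelium and other cells (2.64-fold), at 11, 9.97, 7.72, 8.57 and 10.9 array medians in the allografts and 30.6, 20.1, 28.8 and 22.8 in the isografts. Ehd4 was lower as well (-0.56), with overlapping groups, and did not pass with the 9 grafts alone or without A5, A6, I9 or I13. Trim72 was higher in native BN than DA hearts (0.82, adjusted p = 0.075), opposite to its direction here. Myoferlin (Myof), a repair protein of other cells, was 3.51-fold higher, and annexin A2 (Anxa2) measured 60.7, 72.4, 44.1, 53.1 and 55.1 array medians in the allografts and 22.4, 23.9, 22.2 and 18.9 in the isografts (1.37 ± 0.19).

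Cytosolic and mitochondrial chaperones split in the same manner, 11 higher, 10 lower and 15 not passing of 36, with a median of 0.06. The count of higher members was 6 when isograft I12 was left out, and 7 without allograft A4 or A6 or isograft I11. The inducible heat shock protein Hspa1a measured 7.92, 11.3, 6.91, 9.95 and 10.6 array medians in the allografts and 1.86, 2.45, 1.94 and 2.002 in the isografts (2.16 ± 0.16, adjusted p = 4.6e-08), and its cochaperone Dnaja1 was 1.75-fold higher. Several small heat shock proteins fell, with Hspb3 at 1.3, 1.64, 0.725, 0.827 and 1.14 array medians in the allografts and 12.1, 8.46, 6.1 and 9.09 in the isografts (-3.01 ± 0.25), Hspb2 4.91-fold lower and Hspb6 3.06-fold. The cochaperone Bag3, which works with Hspb8 to clear damaged sarcomere protein, was 2.67-fold lower and Hspb8 1.99-fold. The abundant Cryab, at 121, 125, 51, 69.2 and 100.2 array medians in the allografts and 150.3, 96.3, 94.9 and 154 in the isografts, overlapped between the groups. Hspb1 was 1.65-fold higher (adjusted p = 0.027), with overlap, and did not pass without I12.

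Protein removal genes moved in both directions. Of 32 ubiquitin ligase and autophagy genes, 14 were lower, 9 were higher and 9 did not pass, with 20 without overlap. The median of -0.16 came to 0.0045 when a gene was given by the median of all its probesets. Trim63 (MuRF1), the ligase of wasting muscle, measured 0.46, 0.708, 0.418, 0.352 and 0.65 array medians in the allografts and 5.38, 2.96, 3.49 and 5.39 in the isografts (-3.06 ± 0.23, adjusted p = 4.9e-08). The other such ligase, Fbxo32, passed narrowly (limma adjusted p = 0.083) on low, overlapping signals and was not called. Its signals were 0.0819, 0.306, 0.244, 0.0513 and 0.00969 array medians in the allografts and 0.13, 0.358, 0.247 and 0.383 in the isografts. Fbxo32 changed by -1.71 ± 0.74, or -0.48 with the offset and -0.95 without allograft A7, and did not pass under most alternatives. Pink1, which marks damaged mitochondria for removal, measured 6.12, 11.4, 5.33, 4.5 and 7.88 array medians in the allografts and 44.9, 32.9, 29.2 and 50.3 in the isografts (-2.52 ± 0.25), and the autophagy kinase Ulk1 was 2.92-fold lower. Members that rose included the lymphocyte regulator Cblb (3.04-fold) and the autophagy enzyme Atg7 (3.02-fold). The cargo receptor Sqstm1 was lower by its brightest probeset (-0.86), while its 3 others gave -0.05 to 1.27 and 1 of them passed in the opposite direction.

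Iron and heme genes held some of the largest increases. Of 24, 7 were higher, 1 was lower and 16 did not pass, with a median of 0.34 and 5 called higher. Heme oxygenase (Hmox1), which breaks heme into iron, carbon monoxide and biliverdin, measured 66.7, 62.7, 38.1, 49.8 and 42.5 array medians in the allografts and 3.19, 3.44, 5.18 and 2.42 in the isografts (3.89 ± 0.24, adjusted p = 7.2e-09), and Blvra, which reduces the biliverdin, was 1.86-fold higher but did not pass without isograft I13. Hepcidin (Hamp), the peptide that blocks iron export, measured 28.3, 32, 14.3, 21.1 and 32.7 array medians in the allografts and 2.98, 2.04, 1.76 and 1.87 in the isografts (3.54 ± 0.26, adjusted p = 4e-08), while native DA hearts lay at 1.37 to 2.21. The iron exporter Slc40a1, on which hepcidin acts, did not pass (-0.44). The transferrin receptor Tfrc was 3.02-fold higher than in isografts, at 4.86, 5.77, 4.61, 5.78 and 6.49 array medians in the allografts and 1.76, 1.64, 1.97 and 1.89 in the isografts, but native DA hearts, at 3.1 to 6.45, also lay above the isografts. The zinc carrier Slc39a8 (5.82-fold) and metallothionein Mt2A (2.82-fold) rose, and both were also higher in native BN than DA hearts (0.76, adjusted p = 0.039, and 1.11, adjusted p = 0.015). Fech, which completes heme synthesis in mitochondria, was the member that fell (-1.57 ± 0.24). The AP-1 and antioxidant site TGAGTCA was found in the promoters of Hamp and Mt2A, 2 of 23 (8.70%), against 5.04% of all.

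Among 28 cholesterol genes, 12 were higher, 2 were lower and 14 did not pass, with a median of 0.44. In synthesis, squalene epoxidase (Sqle) was 14.7-fold higher at low signals of 1.16, 0.792, 0.89, 1.09 and 0.675 array medians in the allografts and 0.0855, 0.0281, 0.188 and 0.0318 in the isografts (3.87 ± 0.42, or 1.82 with the offset). Idi1 was 3.58-fold higher at 1.9, 2.07, 1.35, 1.91 and 1.13 array medians in the allografts and 0.447, 0.371, 0.473 and 0.55 in the isografts. Fdft1, the step just before Sqle, was lower at 2.36, 1.78, 1.45, 1.23 and 1.75 array medians in the allografts and 5.32, 2.59, 3.34 and 6.05 in the isografts (-1.29 ± 0.27), with its other probeset at -1.37. Synthesis thus held members in both directions. Soat1, which esterifies cholesterol for storage in macrophages, measured 2.22, 4.64, 5.08, 3.72 and 5.25 array medians in the allografts and 0.493, 0.557, 0.854 and 0.392 in the isografts (2.86 ± 0.29), and Npc2, which carries cholesterol out of lysosomes, was 3.06-fold higher. Apolipoprotein E (Apoe), among the brightest members, did not pass (0.60).

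Of 33 coagulation and fibrinolysis genes, 12 were higher, 5 were lower and 16 did not pass. The median was 0.34, with 5 called higher and 1 called lower. The crosslinking factor XIII subunit F13a1, made by macrophages and platelets, measured 16.1, 26.6, 25, 19.9 and 22.1 array medians in the allografts and 1.78, 1.31, 1.64 and 1.57 in the isografts (3.79 ± 0.18, adjusted p = 6.5e-10). Urokinase (Plau) measured 10.4, 8.38, 8.11, 8.21 and 7.16 array medians in the allografts and 0.783, 0.858, 1.08 and 0.632 in the isografts (3.35 ± 0.38) and its receptor Plaur was 6.12-fold higher, so that activator and receptor rose together, though another probeset of Plaur gave -0.43 and did not pass. Tissue factor (F3), which starts coagulation, was lower at 0.256, 0.21, 0.549, 0.372 and 0.28 array medians in the allografts and 0.553, 0.909, 1.5 and 0.808 in the isografts (-1.49 ± 0.32), and Serpine2, an inhibitor of thrombin and urokinase, was 3.33-fold lower. The endothelial anticoagulants Thbd and Tfpi did not pass (-0.45 and 0.22), but the other probeset of Tfpi passed as lower at -0.86, and the 2 others of Thbd gave -1.09 to -0.21.

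Eicosanoids are lipid mediators made from arachidonic acid. Of 28 such genes, 9 were higher, 3 were lower and 16 did not pass, with a median of 0.20. The inducible cyclooxygenase Ptgs2 measured 1.01, 1.61, 2.32, 1.42 and 1.05 array medians in the allografts and 0.0874, 0.548, 0.277 and 0.313 in the isografts (2.48 ± 0.77, adjusted p = 0.019, or 1.65 with the offset). Thromboxane synthase Tbxas1 measured 9.9, 8.06, 8.91, 8.41 and 9.57 array medians in the allografts and 1.91, 2.08, 1.87 and 1.37 in the isografts (2.33 ± 0.18), and Alox5ap, the helper of 5-lipoxygenase, was 5.04-fold higher. Both Tbxas1 and Alox5ap are abundant in myeloid cells. Prostacyclin synthase Ptgis did not pass (0.18), with overlapping groups. The members that fell were Ephx1 (-2.08), the phospholipase Pla2g5 (-1.96) and the prostaglandin F receptor Ptgfr (-1.89).

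The circadian clock is a loop in which BMAL1 and CLOCK drive E-box genes, among them those of their own repressors. The time of day at which each graft was taken is not given in the sources used here. Of 18 clock genes measured, 7 were lower, 3 were higher and 8 did not pass, with a median of -0.35. The E-box CACGTG was found in 5 of 18 promoters (27.8%) against 7.08% of all. The windows of the 4 holders measured are shown because these holders moved in different directions, with the E-box in capitals. They lie at chr10:84229620-84229665 (Nr1d1, - strand), chr4:143174210-143174255 (Bhlhe40, + strand), chr4:180569378-180569423 (Bhlhe41, - strand) and chr7:115206609-115206654 (Tef, + strand) of GRCr8.
Nr1d1: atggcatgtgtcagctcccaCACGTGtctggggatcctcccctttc
Bhlhe40: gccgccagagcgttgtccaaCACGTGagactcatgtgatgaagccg
Bhlhe41: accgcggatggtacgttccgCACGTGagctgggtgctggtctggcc
Tef: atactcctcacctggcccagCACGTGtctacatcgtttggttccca

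Nr1d1, the nuclear receptor REV-ERB alpha that represses Bmal1, measured 1.23, 1.29, 0.825, 0.865 and 1.15 array medians in the allografts and 3.32, 3.17, 3.21 and 4.73 in the isografts (-1.75 ± 0.18, adjusted p = 1.2e-06), and its relative Nr1d2 was 4.15-fold lower. Bhlhe41, a repressor of E-box genes, went the other way at 6.5, 5.01, 4.45, 5.51 and 7.37 array medians in the allografts and 3.6, 2.42, 2.48 and 3.49 in the isografts (0.95 ± 0.20), and Bhlhe40 was 1.98-fold higher, with A3 within the isograft range. Tef had signals of 0.0731, 0.04996, 0.278, 0.0778 and 0.242 array medians in the allografts and 0.0385, 0.2995, 0.0891 and 0.303 in the isografts, with overlap. Among genes with no E-box in this window, the deubiquitinase Usp2 measured 0.8295, 0.883, 0.628, 0.323 and 0.769 array medians in the allografts and 5.33, 3.77, 4.51 and 6.91 in the isografts (-2.95 ± 0.27) and the repressor Per1 was 4.35-fold lower, or -1.25 on the log2 scale with the offset. Per2, which holds the only D-box (TTATGTAA) of the list, against 0.958% of all promoters, was 2.23-fold lower. Bmal1 itself measured 0.716, 1.02, 1.23, 0.936 and 0.764 array medians in the allografts and 0.785, 1.23, 1.05 and 0.877 in the isografts, with overlapping groups.

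Several clock outputs also respond to glucocorticoids, the adrenal hormones that reach both grafts and native hearts. Of 17 glucocorticoid-responsive genes, 7 were lower, 4 were higher and 6 did not pass, with a median of -0.27, which moved to -0.06 without isograft I11. Klf15, a hormone target that drives branched-chain amino acid breakdown in heart, measured 0.304, 0.283, 0.743, 0.49 and 0.492 array medians in the allografts and 6.66, 2.69, 3.73 and 6.89 in the isografts (-3.42 ± 0.30, adjusted p = 2.1e-07, or -2.82 with the offset), with native DA hearts at 7.09 to 7.87. Klf9 measured 2.11, 2.15, 1.73, 1.85 and 2.6 array medians in the allografts and 10.8, 7.79, 9.91 and 15.1 in the isografts (-2.36 ± 0.20), and Tsc22d3 (GILZ), a target widely used as a readout, was 2.76-fold lower at 2.13, 2.22, 3.74, 2.83 and 3.13 array medians in the allografts and 7.54, 7.1, 8.48 and 7.34 in the isografts. All 3 stood apart in every allograft. The members that rose were Cebpb (3.69-fold), Cebpd, Sgk1 and Cdkn1a. A part of glucocorticoids in the changes of this list, in either direction, was not tested. The receptor Nr3c1 was 1.48-fold lower (adjusted p = 0.024), with A4 at the lowest isograft level.

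Of 48 adrenergic, angiotensin, endothelin, natriuretic and cyclic nucleotide genes, 13 were higher, 13 were lower and 22 did not pass, with a median of 0.15. The shares of 27.1% higher and 27.1% lower were near those of all genes. Among receptors, the alpha-1B adrenoceptor Adra1b measured 1.64, 1.09, 0.673, 0.943 and 1.28 array medians in the allografts and 5.93, 3.1, 4.29 and 6.33 in the isografts (-2.13 ± 0.27, adjusted p = 1e-05), and it was also lower in native BN than DA hearts (-1.11, adjusted p = 0.054). The angiotensin receptor Agtr1a was lower (-1.74 ± 0.55, or -1.12 with the offset) and the beta-1 receptor Adrb1 had low, overlapping signals of 0.139, 0.181, 0.441, 0.391 and 0.0867 array medians in the allografts and 0.327, 0.305, 0.429 and 0.0536 in the isografts. Behind the receptors, the cardiac adenylyl cyclases Adcy5 and Adcy6 were 3.34-fold and 2.66-fold lower, with Adcy5 at 0.941, 1.31, 1.11, 0.824 and 1.49 array medians in the allografts and 4.16, 2.77, 3.21 and 5.1 in the isografts. The phosphodiesterase Pde1a was lower (-4.20 ± 0.75, or -1.32 with the offset) at 0.0242, 0.0247, 0.0342, 0.0147 and 0.0248 array medians in the allografts and 0.47, 0.376, 0.448 and 0.459 in the isografts, all under the array median. Members that rose included Arrb2, a beta-arrestin (6.29-fold), endothelial nitric oxide synthase Nos3 at 1.5, 1.97, 1.42, 1.65 and 1.74 array medians in the allografts and 0.663, 0.644, 0.496 and 0.424 in the isografts (1.59 ± 0.19), and Rgs2, a brake on G protein signaling (3.84-fold, native strain difference 0.90, adjusted p = 0.012).

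The TGF-beta and BMP list held strong changes in both directions around a median of 0.08. Of 40, 10 were higher, 11 were lower and 19 did not pass, with 4 called higher and 2 called lower. The shares of 25% higher and 27.5% lower were near those of all genes. The induced matrix protein Tgfbi measured 58.7, 63.2, 41.3, 56.4 and 76.4 array medians in the allografts and 4.56, 4.74, 5.59 and 3.92 in the isografts (3.64 ± 0.21, adjusted p = 3.1e-09), and ligands rose, Tgfb1 3.17-fold and the activin subunit Inhbb at 1.49, 3.24, 3.15, 1.78 and 2.61 array medians in the allografts and 0.155, 0.304, 0.146 and 0.228 in the isografts (3.56 ± 0.71, or 2.52 with the offset). Of the proteins that bind such ligands outside the cell, Ltbp2 measured 0.32, 0.116, 0.357, 0.173 and 0.191 array medians in the allografts and 1.91, 3.25, 3.4 and 1.49 in the isografts (-3.47 ± 0.44, adjusted p = 8.2e-06, or -2.48 with the offset). Nbl1, a BMP antagonist, measured 0.246, 0.482, 0.785, 0.296 and 0.121 array medians in the allografts and 1.94, 2.59, 2.11 and 2.37 in the isografts (-2.81 ± 0.38, or -2.06). The receptor Bmpr2 was 2.999-fold lower, at 0.814, 2.73, 0.446, 0.836 and 2.35 array medians in the allografts and 3.72, 3.58, 2.89 and 3.59 in the isografts, so that A4 and A7 stood near the isografts.

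Growth factors and their receptors were likewise divided, 12 higher, 16 lower and 31 not passing of 59, with a median of -0.23. The shares of 20.3% higher and 27.1% lower were near those of all genes. The platelet-derived growth factor receptor Pdgfra, a marker of fibroblasts, measured 0.668, 0.182, 2.7, 1.28 and 0.0729 array medians in the allografts and 4.38, 4.84, 4.29 and 3.94 in the isografts (-3.13 ± 0.73, adjusted p = 0.0025) and spread widely among the allografts. Its value was -3.74 without allograft A5, -2.44 without A7 and -2.36 with the offset. Pdgfrb was 3.15-fold lower and Igf1, which fibroblasts and macrophages make, measured 2.65, 2.44, 3.49, 3.7 and 2.19 array medians in the allografts and 8.83, 11.7, 13 and 7.77 in the isografts (-1.83 ± 0.21). In native DA hearts Igf1 lay at 1.83 to 2.86, about the allograft range and under the isografts. Pdgfrb lay at 0.833 to 0.989 in native DA hearts, within the allograft range of 0.494 to 1.20 and under the isografts at 1.53 to 3.10. Vegfb, a vascular factor of oxidative muscle, was 4.1-fold lower at 2.4, 3.45, 1.73, 1.95 and 2.28 array medians in the allografts and 10.2, 9.36, 6.97 and 11.8 in the isografts. Angptl4, an inhibitor of lipoprotein lipase, rose most, at 11.4, 12.9, 14, 10.6 and 16.2 array medians in the allografts and 1.16, 1.5, 2.28 and 2.35 in the isografts (2.88 ± 0.37). Areg, an epidermal growth factor receptor ligand, was 4.71-fold higher, and Erbb3 3.21-fold (adjusted p = 0.012), at low signals. The change of Erbb3 of 1.68 on the log2 scale was 0.99 without isograft I13, and with the offset those of Areg and Erbb3 were 0.81 and 0.97.

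These genes can be set beside the fibroblast markers heart by heart. The summed level of 12 such markers was 142 in A3, 57.9 in A4, 259 in A5, 127 in A6 and 31.5 in A7, against 248 to 310 in isografts and 85.8 to 102 in native DA hearts. The sum of A5 lay inside the isograft range, with Col1a1 (61.3) and Col1a2 (38.6) above every isograft and Postn (24.8) among them, whereas 8 of the 12 markers lay under every isograft in A5, such as Dpt at 3.12 against at least 23.1. The median marker of A5 was -0.60 relative to the isograft mean on the log2 scale, and the lowest isograft was at -0.15. Among the allografts A5 also had the highest Pdgfra and Nbl1, and A7 the lowest of both. Pdgfrb, Igf1 and Ltbp2 did not follow at both ends. Pdgfrb was highest in A3 (1.20) and Igf1 in A6 (3.70), and each was lowest in A7. Ltbp2 was highest in A5 but lowest in A4. In A5 itself Pdgfra was 2.70 against at least 3.94 in isografts, Nbl1 0.785 against at least 1.94, Ltbp2 0.357 against at least 1.49 and Igf1 3.49 against at least 7.77. Pdgfra is itself among the 12 markers.

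**Figure D5:**
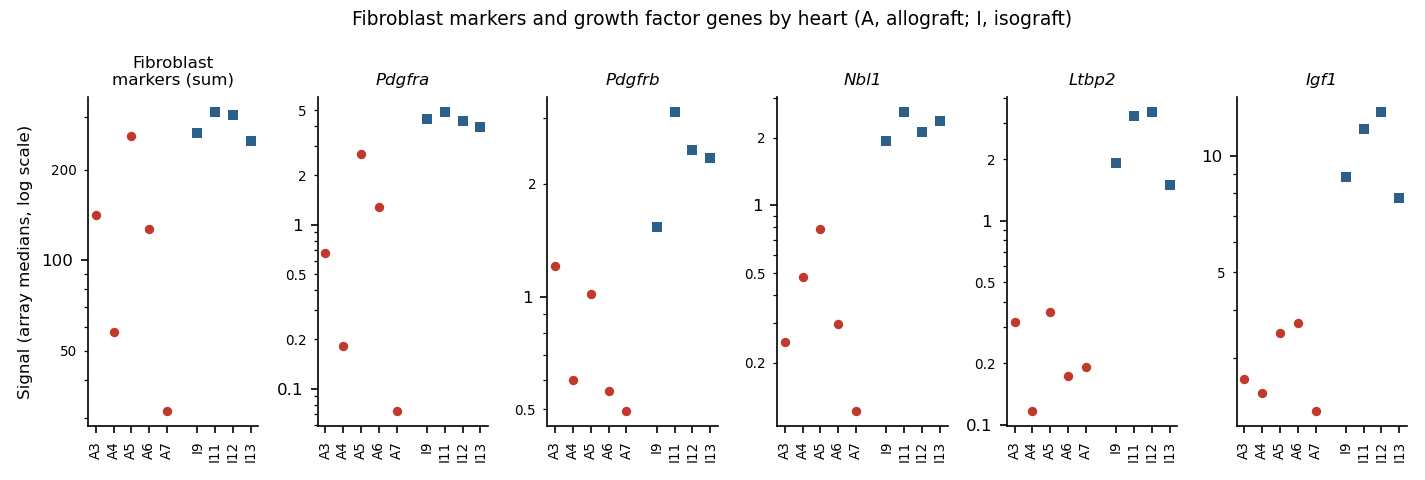
Sum of 12 fibroblast markers and levels of 5 genes in each heart, in array medians on log axes that differ between panels, for 5 allografts (red circles) and 4 isografts (blue squares). The marker sum of A5 (259) lies within the isograft range of 248 to 310, although 8 of the 12 markers lie under every isograft in A5, and for the 5 genes every allograft lies under every isograft.

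Wnt and Notch genes changed little. Of 30, 9 were lower, 3 were higher and 18 did not pass, with a median of -0.10, and the count of lower members was 5 without isograft I12 and 5 with signals as deposited. Wnt4 rose at low signals of 0.558, 0.45, 0.397, 0.666 and 0.285 array medians in the allografts and 0.0199, 0.0592, 0.268 and 0.0251 in the isografts (3.09 ± 0.78, or 1.10 with the offset and 3.87 without isograft I12), and the Notch effector Rbpj measured 2.92, 2.56, 2.87, 2.62 and 3.38 array medians in the allografts and 1.39, 1.14, 1.26 and 1.08 in the isografts (1.24 ± 0.16). Dkk3, of the Dickkopf family, was 4.92-fold lower by its brightest probeset, while its other probeset passed in the opposite direction at 1.87. The 2 probesets of Dkk3 thus give opposite directions.

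Regulators of NF-kB, JAK-STAT and MAP kinases were higher in 16, lower in 4 and not passing in 15 of 35, with a median of 0.49. Receptors and adapters of innate signaling rose, with Tlr4 4.1-fold and Myd88 3.49-fold higher, and the TNF receptor Tnfrsf1b 9.46-fold higher at 1.34, 1.28, 0.743, 1.23 and 1.38 array medians in the allografts and 0.086, 0.113, 0.123 and 0.194 in the isografts (3.24 ± 0.49, or 1.92 with the offset). Feedback inhibitors moved in both directions. The MAP kinase phosphatase Dusp2 was higher at 3.22, 4.78, 2.76, 3.19 and 3.42 array medians in the allografts and 0.61, 0.759, 0.628 and 0.486 in the isografts (2.48 ± 0.23), as were the cytokine brake Socs3 (2.19-fold) and the NF-kB inhibitor Nfkbia (1.67-fold). The phosphatase Dusp1 was lower (-0.75 ± 0.20) with overlapping groups and was also lower in native BN than DA hearts (-0.88, adjusted p = 0.04), and Socs2 was lower (-1.35 ± 0.41) on low, overlapping signals of 0.14, 0.365, 0.295, 0.573 and 0.203 array medians in the allografts and 0.601, 1.54, 0.475 and 0.592 in the isografts. The shared receptor chain of the interleukin-6 family, Il6st, fell at 5.6, 7.18, 4.87, 4.91 and 6.27 array medians in the allografts and 9.96, 8.44, 9.77 and 11.3 in the isografts (-0.78 ± 0.17, adjusted p = 0.0014), with its 2 other probesets at -1.02 to -0.86, and the adapter Traf2 was 2.7-fold lower.

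Over all called genes, the 12 largest rises and the 12 largest falls were taken, leaving out genes on the lists of leukocyte, sarcomere and energy genes. Genes of leukocytes that were not on those lists remain, such as F13a1 and Spp1, which macrophages make. Those that rose to high signals were the lactate carrier Slc16a3 (MCT4), at 11.4, 16.1, 14.9, 10.8 and 13.4 array medians in the allografts and 0.713, 1.04, 0.544 and 0.517 in the isografts (4.28 ± 0.31, adjusted p = 3.6e-08), osteopontin and Akr1b8. Osteopontin (Spp1), a matrix cytokine of macrophages, measured 116, 117, 64.1, 106 and 111 array medians in the allografts and 4.94, 6.55, 10 and 2.29 in the isografts (4.27 ± 0.34). The aldose reductase-like enzyme Akr1b8 measured 13.1, 9.92, 12.9, 14.6 and 14 array medians in the allografts and 0.582, 0.796, 1.51 and 0.524 in the isografts (4.04 ± 0.28). Syndecan-1 (Sdc1), a surface proteoglycan, measured 4.21, 3.16, 3.9, 3.54 and 4.97 array medians in the allografts and 0.0969, 0.439, 0.39 and 0.0619 in the isografts (4.45 ± 0.55, 3.15 with the offset and 3.17 by its brighter probeset). Zdhhc14 (20.4-fold), Kcne3 (17.3-fold), Ptprj (14.7-fold) and Bin2 (15.5-fold) had isograft signals far under the array median, and with the offset their log2 fold changes were 2.28, 2.50, 2.03 and 2.49. For Rrbp1 and Gmfb the choice of probeset decided the size: the named probesets gave 4.02 and 3.93, the brightest 0.90 and 0.28, and the offset brought the former to 2.06 and 2.03. F13a1 and Hmox1, given above, complete the 12.

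Among genes that fell, Sphkap, an anchor of protein kinase A in muscle, measured 0.749, 0.283, 0.122, 0.246 and 0.854 array medians in the allografts and 10.5, 9.41, 7.62 and 9.67 in the isografts (-4.71 ± 0.41, adjusted p = 2e-07). The dehydrogenase Dhrs7c of the sarcoplasmic reticulum measured 0.075, 0.398, 0.559, 0.285 and 0.471 array medians in the allografts and 10.1, 3.12, 6.35 and 9.27 in the isografts (-4.48 ± 0.48), with native DA hearts at 11.5 to 15.6. Septin4 measured 0.0457, 0.0741, 0.299, 0.0712 and 0.0864 array medians in the allografts and 2.88, 2.04, 2.71 and 3.04 in the isografts (-4.86 ± 0.40). The carboxylesterase Ces1d measured 0.029, 0.0695, 0.42, 0.094 and 0.288 array medians in the allografts and 2.93, 2.44, 2.66 and 3.49 in the isografts (-4.60 ± 0.55). The matrix protein Matn2 was 24-fold lower than in isografts, and native DA hearts, at 0.0996 to 0.643, were also under the isografts. Kcnj11, the pore of the ATP-sensitive potassium channel, fell by 5.81 at a probeset with 0.0568, 0.118, 0.0577, 0.0431 and 0.101 array medians in the allografts and 5.25, 3.76, 2.94 and 4.11 in the isografts, but by 1.48 at its brightest. The others were Tmem116 (26.4-fold), Prcd (22.8-fold), Lrrc4b (21.5-fold, and -2.71 by its brightest probeset), Lnx1, Ogn and Mfap4. With the offset, the changes were -3.89 for Sphkap, -3.56 for Dhrs7c, -3.02 for Septin4, -2.94 for Ces1d, -2.60 for Matn2, -3.69 for Kcnj11, -2.34 for Tmem116, -2.51 for Prcd and -2.53 for Lrrc4b, so that every direction held and the sizes shrank. Present calls were not used here, so that signals far under the array median cannot be told from background.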

How the data were processed

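Heart tissue was measured on 18 Affymetrix RAE230A arrays, 1 per heart, of which the 5 allografts and 4 isografts were compared here. The authors derived the deposited signal intensities in the array software (MAS5), on a linear scale, scaled to a trimmed mean of about 100 per array. The software version is not given in the sources used here, and detection calls were not used. The deposited intensity median was 38.8 to 50.8 over the 9 grafts. Samples were grouped by their titles and no 2 arrays were identical. Precision is set by the number of arrays.

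Following the study's Methods, intensities were divided by the array median and put on a log2 scale. The 57 control probesets were left out, and 15866 were fitted in limma 3.58.1 under R 4.3.3 (lmFit, eBayes) with a mean for each of 4 heart groups (the grafts, 5 native BN hearts and 4 native DA hearts), with Benjamini-Hochberg adjustment over all probesets. A signal at the array median in at least 50% of either group took the place of the present call. Gene symbols came from the platform annotation and 12756 of 12783 probesets with 1 symbol matched the RefSeq gene table of GRCr8, which was used for names and promoter sequences only. Promoter windows run from 250 bases before to 50 after the start, and 8 motifs were searched in 11 pairs of motif and list. GRCr8 is not a DA genome, and sequence differences between strains under the probes were not analysed here.

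The groups, the 23 process lists and 8 marker lists were chosen with earlier results of these data known, so that their counts, medians and summed levels are given as descriptions. Named genes are the 12 largest rises and the 12 largest falls among called genes (1 symbol, no overlap, not on the leukocyte, sarcomere or energy lists), the 3 members of each list that passed with the largest rise and the 3 with the largest fall, and the 4 brightest members of each list. Other genes were named after their values were seen, namely Rpl3, Rpl3l, the pairing of related genes, and members given to show a step of a pathway. Rats are separate animals. A native and a grafted heart with the same number come from 1 recipient, but the 2 graft groups share no recipient. The test script was checked on simulated data. Alternatives were other scaling, an offset of 0.25 array medians, fewer samples, a recipient block, other variance moderation, other signal criteria, the median over probesets, and each graft left out.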

Additional observations from a re-analysis of the deposited data

Results flagged for a closer look

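The values below came from hearts that lay far from the others of their group (gap to the nearest heart over the range of the group above Dixon's critical value). Such gaps were found 17 times in 504 groups of hearts examined, and chance alone gives about 1 in 20. In isograft I11 the median growth factor gene lay 0.165 above the isograft mean on the log2 scale, with the next isograft at -0.0150. Among allografts, Sel1l was 1.43 array medians in A3 (nearest 1.78), Slc7a7 3.37 in A7 (nearest 5.14), Gsn 12.9 in A7 (nearest 10.2), Acat1 6.4 in A4 (nearest 4.18), Prcd 0.262 in A6 (nearest 0.102), Pdia4 6.73 in A6 (nearest 8.16) and Sec61b 20.1 in A6 (nearest 13.99). Allograft A5 stood apart 3 times, with Tnfrsf1b at 0.743 (nearest 1.23), Spp1 at 64.1 (nearest 105.7) and Septin4 at 0.299 (nearest 0.0864). Among isografts, Ephx1 was 1.59 in I13 (nearest 1.76), Nr1d1 4.73 in I13 (nearest 3.32), Bmpr2 2.89 in I12 (nearest 3.58), Wnt4 0.268 in I12 (nearest 0.0592), Eif4a1 12.7 in I9 (nearest 10.7) and Socs2 1.54 in I11 (nearest 0.601). For each of these genes except Socs2, every allograft still lay outside the isograft range.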

How the results depend on the processing

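Of 287 genes named by the rule or in the text, 248 passed the test, 227 of them under every alternative run, and none reversed. The number of called probesets, 605 higher and 801 lower, ranged from 560 to 640 and from 714 to 876 with each graft left out. With the recipient as a random replicate block (consensus correlation 0.0575, same-recipient correlations -0.045 to 0.1185, so the numbers did not pair the hearts by deviation) it was 605 and 801, and no named gene stopped passing the test. With the offset the counts were 448 and 616. Signals as deposited, which shift the median of all genes to 0.10, gave an ER median of 1.02 and a Wnt and Notch median of -0.0204, and quantile normalization an ER median of 1.03. The offset gave medians of 0.84 for ER, -0.20 for clock, -0.11 for growth factor and 0.32 for NF-kB genes. The median over all probesets of a gene gave 0.0045 for ubiquitin ligases and autophagy and 0.42 for splicing. With each graft left out, list medians ran from -0.52 to -0.14 for clock, -0.37 to -0.056 for glucocorticoid, -0.0171 to 0.23 for TGF-beta, -0.18 to -0.047 for Wnt and Notch, and -0.30 to -0.10 for growth factor genes. The adrenergic list (-0.0050 without isograft I12), caveolae (to -0.0852 without allograft A4) and TGF-beta (without isograft I13) changed the sign of a median near 0. Beside those in the text, counts of list members moved from 3 to 5 lower for eicosanoids (without isograft I13), 1 to 2 lower for iron, 2 to 1 lower for ribosomes (9 grafts alone, or without I9 or I13), 0 to 1 higher for dystrophin and disc genes (quantile normalization), 3 to 5 higher for Wnt and Notch, and 2 to 1 or 0 higher for mitochondrial import. Fold changes moved by over 1.5 times for 45 named genes, 43 of them with the offset. The cause was not tested, and low signals, which cannot be told from background without detection calls, limit the size of these changes.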
